A study of Mus musculus with 2 samples.

Results

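The genes described here serve DNA damage response and repair: 49 genes, listed by name, that sense DNA lesions, signal their presence or mend them. They were read in total RNA of uterine epithelial cells from mice on day 4 of pregnancy, on an Affymetrix Mouse Genome 430A 2.0 array, which reads each transcript with sets of short oligonucleotide probes. Every probe set whose platform gene symbol was that of a listed gene was taken, and the brightest one, by mean log2 signal, stood for the gene. A probe set named for 1 gene was found for 45 of the 49, out of 12393 genes represented in the same way, while Brip1, Fancd2, Lig4 and Mdc1 had none, so their expression was not analysed here.

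The study compared 2 groups with 1 array each: a control, named in the labels as Stat3 flox control mice, and a Stat3 knockout, both on day 4. The design text gives n = 3 per group with pooled RNA, so each array read 1 pool. Both arrays carry the same title, and the genotype label was used to separate them. The label on RNA extraction speaks of human stromal cells of the endometrium, which conflicts with the sample characteristics; the latter, mouse uterine epithelium, were followed. The sources used here do not give the promoter that drove the deletion, nor the strain and age of the mice. Epithelium was freed with trypsin and by squeezing the tissue, so the RNA may include that of other uterine cells. With 1 array per group there is no replicate check, no test and no p-value, and all differences below are given by size. Lower signal from fewer cells of a type and lower signal from less RNA per cell cannot be told apart in such bulk RNA.

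Cells repair different lesions by different routes. Breaks through both strands are sensed by the MRE11-RAD50-NBS1 complex and the kinase ATM, and are mended either by direct joining of the ends, which is possible at any stage of the cell cycle, or by homologous recombination, which copies the sister chromatid and therefore works after DNA has been replicated. Stalled replication forks activate the kinase ATR and its effector CHEK1. Damaged or mispaired bases are handled by base excision, nucleotide excision and mismatch repair. Base excision and nucleotide excision also work in cells that are not dividing. Several recombination and checkpoint genes are known targets of the E2F factors and are transcribed mainly in S and G2 phase. Uterine epithelium divides early in mouse pregnancy and leaves the cell cycle before the embryo attaches.

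The values are MAS5 signals, background-corrected probe set brightness on a linear scale, which the authors had brought to a common mean (149.98 on both arrays after 2% of probe sets was trimmed at each end). Signals under a floor of 14.0, the 40th percentile of all signals, were set to the floor. A gene under it on 1 array has a fold given as "at least", and a gene under it on both has none. Stat3 itself was 3.12-fold lower in the knockout (signals of 582 and 186), and a further probe set was 2.69-fold lower. Whether these probe sets lie in the deleted part is not known here. Of 12 epithelial markers, all were over the floor on both arrays, and they summed to 26445 on the control array and 28642 on the knockout array. Krt7 was 3.46-fold lower (1592 and 460), and Ehf and Cldn4 were 2.35-fold and 2.09-fold higher. Leukocyte markers summed to 1677 and 2687 over 13 genes, a sum that Cd14 (1262 and 2101) dominated. Of these 13 genes, 7, among them Cd3e and Itgam, were under the floor on both arrays. Of the 6 with a ratio, 5 lay above 0 and 1, Cd68, below it (81.1 and 44.4), while Ptprc had 34.4 and 38.2. Stromal markers summed to 2732 and 3650 over 12 genes, a sum that Dcn (1235 and 1753) dominated; Fn1 was 2.11-fold lower (119.6 and 56.7), and Hand2 and Pdgfrb were under the floor. Of 7 muscle and 7 vessel markers, 4 each were under the floor on both arrays. The cell division markers, described with the comparison of gene groups below, differed far more.

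Among the 44 repair genes with a ratio, 11 were lower on the knockout array by 2-fold or more, 3 were higher by as much and 30 lay within 2-fold. The background over all 8304 genes with a ratio was 9.92% lower and 7.37% higher, against 25.0% and 6.82% of the repair genes. At 3-fold, 6 repair genes were lower and 0 higher, beside 4.83% and 1.72% of all genes, and at 1.5-fold 15 were lower and 7 higher, beside 18.6% and 19.4%. All 11 lower genes had a geometric mean signal under 150: 7 of 13 repair genes at 14 to 50 were lower, beside 15.9% of all genes there, and 4 of 23 at 50 to 150, beside 11.3%. Of the higher genes, 2 lay at 50 to 150, where 6.24% of all genes were higher, and 1 above, where 7% were. The median log2 ratio of knockout over control was -0.20 for the repair genes and 0.05 for all genes. The lower genes were the recombination genes Rad51ap1, Brca1, Rad54l and Brca2, the resection and helicase genes Blm, Exo1 and Mre11a, the checkpoint kinase genes Chek1, Atr and Chek2, and the uracil glycosylase gene Ung. The higher genes, Ercc5, Xpc and Ddb2, all act in nucleotide excision repair. The lower genes were dim, with control signals of 49.9 to 117, and the count depends on the floor: with the floor at the 60th percentile (64.3) it was 0 of 35 with a ratio, beside 7.27% of all genes, since a 2-fold decrease then needs a control signal of 129. In the other 10 settings of scaling, floor and probe set it was 9 to 13, while the share of all genes ran from 5.40% with the floor value added to 14.3% with no floor.

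**Figure D1:**
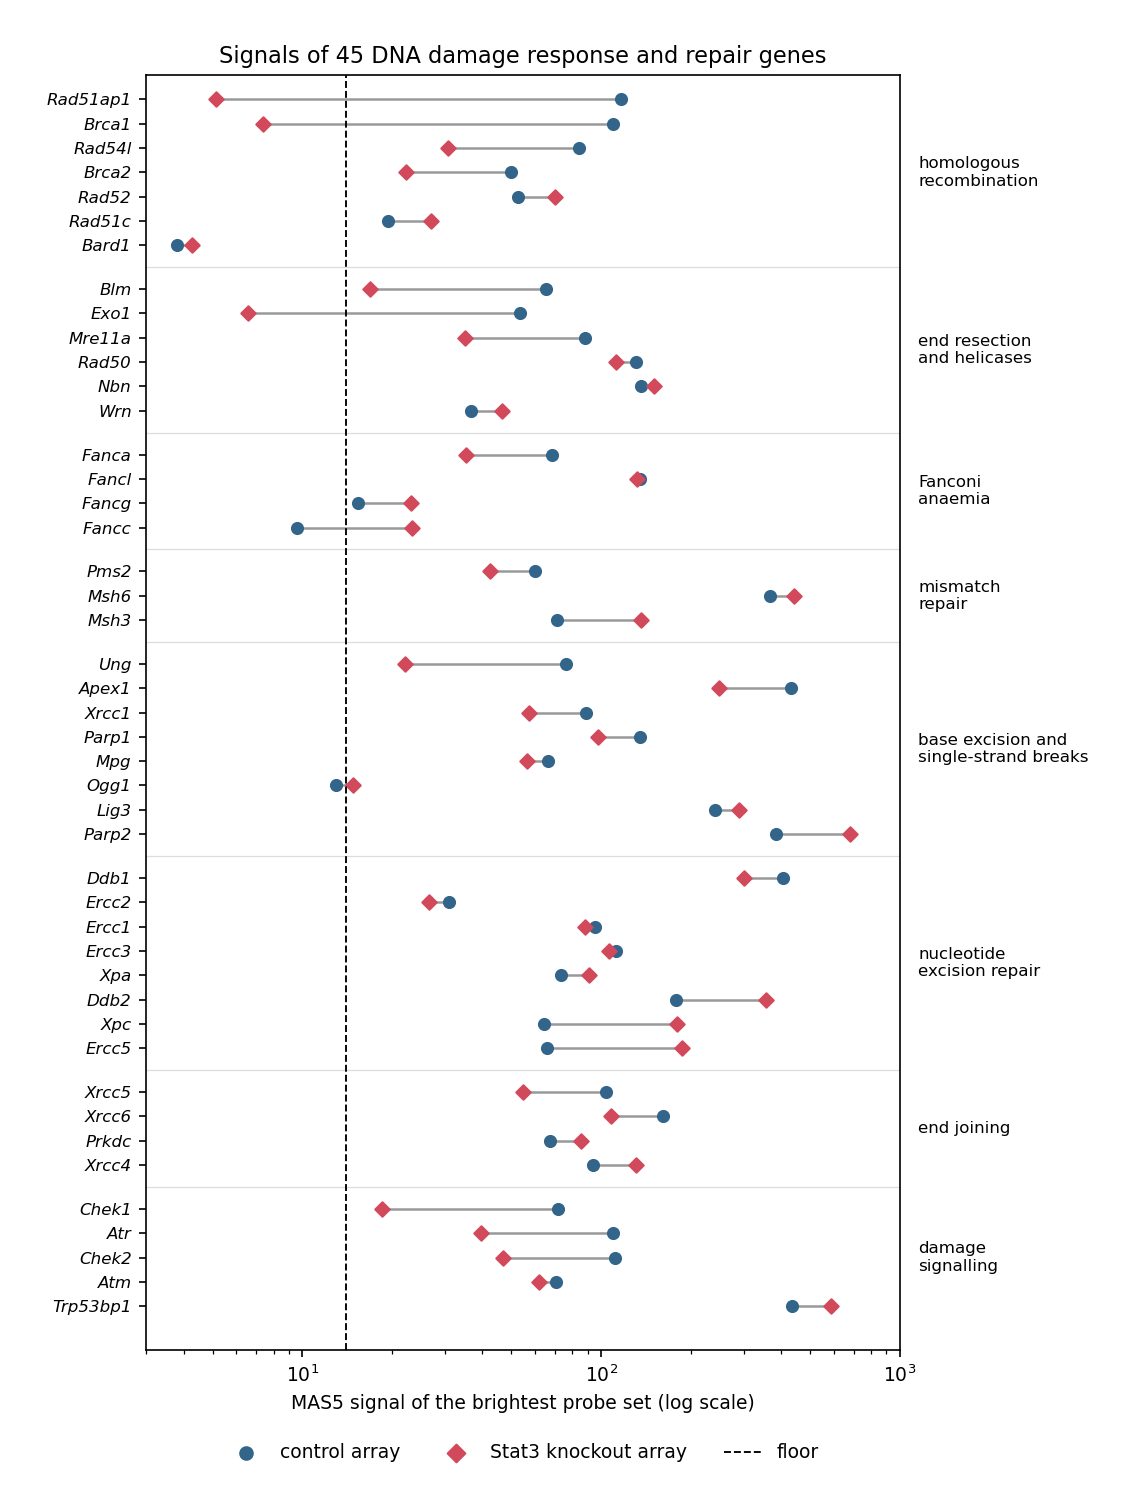
Signal of the brightest probe set of each of 45 repair genes (x axis, MAS5 signal, log scale) on the control array (circles) and the Stat3 knockout array (diamonds), grouped by role, with the floor of 14.0 dashed. Most long leftward lines belong to recombination, resection and checkpoint genes such as Rad51ap1 (117 and 5.13) and Brca1 (109.6 and 7.39). Ung, a base excision gene, has one too (76.0 and 22.0). Long rightward lines include those of Ercc5, Xpc and Ddb2, and that of Fancc (9.56 and 23.3), which starts under the floor.

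A form of the recognition sequence of E2F factors, TTTNNCGC, was looked for because many of the lower genes are textbook E2F targets. Both strands of the 250 bases upstream of each gene's start were searched in RefSeq promoter windows (GRCm38.p6). The 50 bases after the start were not searched. Windows were matched for 40 of the 49 genes by symbol. The letters were present in 2 of 10 lower genes with a window (Chek2 and Brca2), in 3 of 25 genes within 2-fold and in the window of Ercc5, which was higher, beside 8.71% of 6788 genes with a ratio and a window. Bard1, Brip1 and Mdc1, without a ratio, also held them. The stretches below are those of the lower genes with a match and, for contrast, of Fancl, with a log2 ratio of -0.04; capitals mark the E2F letters, which read on the opposite strand in both cases. They cover chr5:110839831-110839950 (+ strand), chr5:150522453-150522572 (+ strand) and chr11:26386964-26387083 (+ strand), 120 bases each, written 5′ to 3′ along the gene.
Chek2: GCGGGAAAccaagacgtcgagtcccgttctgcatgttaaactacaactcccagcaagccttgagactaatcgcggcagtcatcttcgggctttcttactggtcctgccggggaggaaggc
Brca2: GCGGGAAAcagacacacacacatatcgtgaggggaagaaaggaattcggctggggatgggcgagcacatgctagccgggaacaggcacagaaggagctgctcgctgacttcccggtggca
Fancl: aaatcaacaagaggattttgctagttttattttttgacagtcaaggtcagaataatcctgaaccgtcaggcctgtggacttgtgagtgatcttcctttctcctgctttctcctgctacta
The match lies 152 to 145 bases upstream of the start in Chek2 and 168 to 161 bases upstream in Brca2, and it is GCGGGAAA in both. The cell cycle homology region TTTGAA was in 0 of the 10 lower genes, 0 of the 25 within 2-fold, the window of Ercc5 and 12.3% of the 6788. The NF-Y box CCAAT was in 6 of 10, 12 of 25 and 40.8%, and the SP1 box GGGCGG in 5 of 10, 18 of 25 and 66.0%. A match is a description of letters and not a bound site. Lack of a match does not show that a gene has no site, since other spellings and other bases were not searched.

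Of 6 homologous recombination genes with a ratio, 4 were at least 2-fold lower, beside 9.92% of all genes. Rad51ap1, whose product promotes strand pairing in recombination, read 117 in the control pool and 5.13 in the knockout pool, at least 8.31-fold lower. Brca1, which promotes the resection of broken ends, had signals of 109.6 and 7.39, at least 7.81-fold lower. Both were under the floor in the knockout, so these folds are lower bounds. With the mean of all probe sets, bounds included, their log2 ratios were -1.94 and -1.52. Rad54l, a translocase that acts on chromatin during strand exchange, had signals of 84.1 and 30.8, or 2.73-fold lower. Brca2, a mediator of strand exchange, had signals of 49.9 and 22.2, or 2.24-fold lower, and with the floor value added to both signals its log2 ratio was -0.82, within 2-fold. The remaining genes of the route did not share that direction. Rad51c, which also acts in strand exchange, had signals of 19.3 and 27.0, and Rad52, an annealing protein, 52.6 and 70.0, or 1.40-fold and 1.33-fold higher. Bard1, the partner of BRCA1, was under the floor on both arrays (3.82 and 4.25), so it has no ratio.

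The genes that process broken ends and unwind DNA fell into 3 lower and 3 within 2-fold, while 9.92% of all genes were lower. Blm, the helicase that dissolves recombination intermediates and is mutated in Bloom syndrome, had signals of 65.3 and 16.9, or 3.87-fold lower. Exo1, a nuclease of end resection and mismatch repair, had 53.3 and 6.56, at least 3.80-fold lower. The MRN complex, which binds broken ends, was split: Mre11a, its nuclease subunit, had signals of 88.4 and 35.0, or 2.52-fold lower, while Rad50 had 131 and 112 (log2 ratio -0.22) and Nbn, the subunit that recruits ATM, 136 and 150.1 (0.14). Wrn, the helicase of Werner syndrome, had signals of 36.5 and 46.4, with a log2 ratio of 0.35. The helicase genes Blm and Wrn, of the same RecQ family, thus lay on opposite sides of 0.

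In damage signalling, 3 of 5 genes with a ratio were lower by 2-fold or more, beside 9.92% of all genes. Chek1, the kinase that ATR activates at stalled forks, had signals of 71.9 and 18.5, or 3.89-fold lower, in a probe set of a design shared between transcripts; without such designs its log2 ratio was -1.21, at least 2.31-fold lower. Atr had 109 and 39.6, or 2.76-fold lower. Chek2, the kinase that ATM activates after breaks, had 111 and 46.8, or 2.37-fold lower. The knockout array thus showed 25.7% of the control signal for Chek1, 36.3% for Atr and 42.1% for Chek2. Atm, in contrast, read 70.6 and 62.0, with a log2 ratio of -0.19, so that the sensor kinases Atm and Atr had unequal ratios. Trp53bp1, which encodes the chromatin reader 53BP1 that favours end joining, had 434 and 586, or 1.35-fold higher.

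Nucleotide excision repair, which removes bulky and ultraviolet lesions, held all 3 higher genes and no lower one among 8. The shares over all genes were 7.37% higher and 9.92% lower. Xpc, the sensor of helix distortion, read 64.1 on the control array and 179 on the knockout array, or 2.79-fold higher. Ercc5, the nuclease XPG that cuts on the 3′ side of the lesion, had 66.1 and 187, or 2.82-fold higher. Of all genes with a ratio, 2.17% had one as high as Ercc5 and 2.24% one as high as Xpc. Ddb2, the damage-binding subunit that hands ultraviolet lesions to XPC, had 178 and 356, or 2.01-fold higher, only just past the limit; its other probe set was 1.91-fold higher (167 and 318), and its call was lost under 3 of the alternatives, with log2 ratios of 0.95 to 0.97, and with shared probe sets left out it had no value. Ddb1, the partner of DDB2 in the same ubiquitin ligase, had 404 and 301, a log2 ratio of -0.43. The helicase genes of the TFIIH complex, Ercc2 and Ercc3, had signals of 30.8 and 26.6, and of 112 and 106. Ercc1, a subunit of the nuclease that cuts on the 5′ side, had 95.3 and 88.0, and Xpa, the scaffold of the incision complex, 73.1 and 91.0. The log2 ratios of these last 4 genes lay between -0.21 and 0.32.

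In base excision and single-strand break repair, 1 of 8 genes (12.5%) was past 2-fold, near the shares of all genes (9.92% lower, 7.37% higher). Ung, the glycosylase that removes uracil and serves replication forks, had signals of 76.0 and 22.0, or 3.46-fold lower. Apex1, the main endonuclease at abasic sites, had signals of 433 and 247, or 1.75-fold lower; its other probe sets were 2.11-fold (470 and 222) and 1.39-fold lower (323 and 233), so its probe sets fell on both sides of the limit. Parp1, which marks breaks with ADP-ribose, had 135 and 97.6, or 1.39-fold lower, and its other probe sets were 2.15-fold lower (153 and 71.2) and 1.15-fold lower (121 and 105). Parp2, the related enzyme, had the opposite direction, with 383 and 680.3, or 1.77-fold higher. Xrcc1, the scaffold protein, had signals of 89.1 and 57.2 (log2 ratio -0.64), and Lig3, the ligase it binds, 240.3 and 288 (0.26). The glycosylase genes Mpg and Ogg1 had signals of 66.2 and 56.6, and of 12.9 and 14.8, where Ogg1 was under the floor in the control. A dimmer Mpg probe set had the other direction, with signals of 18.3 and 23.3.

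End joining, Fanconi anaemia and mismatch repair genes had none called past 2-fold among 4, 4 and 3 with a ratio, of which Fancc is a bound. As 9.92% of all genes were lower and 7.37% higher, so few genes do not set these routes apart from the background. Of the Ku heterodimer, which caps broken ends, Xrcc5 (Ku80) had signals of 103 and 54.9, or 1.89-fold lower, and Xrcc6 (Ku70) 161 and 108, or 1.49-fold lower. Prkdc, the kinase that Ku recruits, had 67.5 and 85.5 (log2 ratio 0.34), and Xrcc4, the partner of ligase IV, 93.5 and 131 (0.49), so the end joining genes were divided by direction. Among the Fanconi genes, whose products undo crosslinks between strands, Fanca was 1.94-fold lower (68.5 and 35.3), near the limit. Of the other core complex genes, Fancg had signals of 15.4 and 23.1. Fancc, under the floor in the control, had 9.56 and 23.3, at least 1.66-fold higher, and its log2 ratio was 1.29 with no floor. Fancl, the ubiquitin ligase subunit, had 135 and 131. In the mismatch route, Msh6, which reads single mispairs, had 367 and 443 (log2 ratio 0.27), although it is listed among the cell-cycle-regulated genes. Msh3, which reads longer loops, had 71.0 and 136, or 1.92-fold higher, and Pms2, the endonuclease subunit, 60.1 and 42.5, or 1.41-fold lower.

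The repair genes that textbooks describe as transcribed mainly in dividing cells had lower ratios than the rest, a difference given by size alone. Their list was chosen with earlier results of these data known, so it is not independent of the ratios it sorts. Of 13 genes so listed, 10 had a ratio, 8 of these were lower past the limit and 0 higher, and their median log2 ratio was -1.86. The exceptions were Fanca and Msh6. Of the 36 other repair genes, 34 had a ratio, and 3 were lower (Mre11a, Atr and Chek2) and 3 higher, which is 8.82% each, near the background of 9.92% and 7.37%, with a median of 0.02. Cell division markers differed in the same direction: 21 of 22 were lower past the limit, the median was -3.75, and the summed signal was 14123 on the control array against 2021 on the other, or 6.99-fold lower. Mki67 was 38.9-fold lower (742 and 19.1) and Cdk1 31.6-fold lower (990 and 31.3), while Tyms had 16.8 and 21.8. The part of this difference in the repair gene values was not tested. The lowest ratio of a repair gene, -3.06, was a bound and so cannot be ranked against these.

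**Figure D2:**
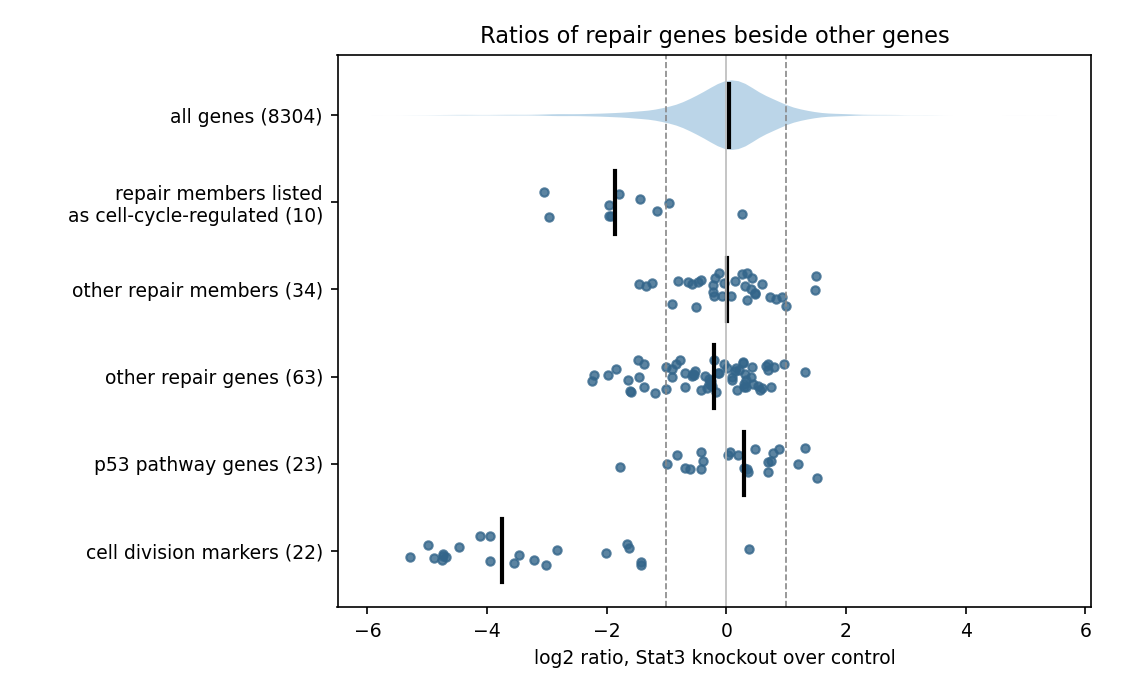
Log2 ratio of Stat3 knockout over control (x axis) for all 8304 genes with a ratio (shape whose width shows how many) and for 5 gene groups (1 point per gene, number in brackets), with group medians as black bars and the 2-fold limits dashed. The cell-cycle-regulated repair genes have a median of -1.86, between the cell division markers at -3.75 and the other repair genes described here at 0.02. The groups were listed with earlier results of these data known.

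A further 99 repair genes outside the 49 were listed by role. Of the 63 with a ratio, 13 were lower by 2-fold or more and 1, the thymine glycosylase gene Mbd4, was higher, and the median log2 ratio was -0.21; the shares were 20.6% and 1.59%, beside 9.92% and 7.37% of all genes. Recombination and Fanconi genes had 2 of 12 lower: Eme1, a nuclease subunit, at least 3.12-fold (43.8 and 6.32), and Fanci, the partner of FANCD2, at least 2.59-fold (36.3 and 10.3). Usp1, which removes ubiquitin from FANCD2, had 1055 and 528, a fold of 2.00 that was just inside the limit. Base excision and single-strand break genes had 5 of 12 lower, led by the flap nuclease gene Fen1 at 4.75-fold (333 and 69.9) and the replicative ligase gene Lig1 at 3.04-fold (230 and 75.7), both of which also serve lagging strand synthesis. Tdp1, which frees trapped topoisomerase, was 3.03-fold lower (53.7 and 17.7), and the glycosylase gene Neil3 at least 2.78-fold lower (39.1 and 10.3). Damage signalling genes had 5 of 16 lower, among them the phosphatase gene Cdc25b at 4.62-fold (123 and 26.6), the fork protection genes Timeless and Tipin at 3.93-fold (97.5 and 24.8) and 3.58-fold (476 and 133), and Topbp1, the activator of ATR, at 2.74-fold (347 and 127). The other 11 lay within 2-fold. In lesion bypass and direct reversal 1 of 9 was lower, the ubiquitin ligase gene Rad18, at least 2.29-fold (32.1 and 9.29). None of 10 nucleotide excision, 3 end joining and 1 mismatch repair genes was past 2-fold; among them Rad23b, which stabilises XPC, had 530.1 and 330.1, and Cetn2, another XPC partner, 457 and 367.

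Damage kinases are known to activate the transcription factor p53, and genes of its pathway were listed as well. Of 23 genes with a ratio, 3 were higher past the limit and 1 was lower, and the median log2 ratio was 0.30. Over all genes 7.37% were higher and 9.92% lower, with a median of 0.05. Sesn1, a stress-induced regulator of growth, was 2.87-fold higher (133 and 381), the death gene Bbc3 2.50-fold (15.2 and 38.1) and the antiproliferative gene Btg2 2.31-fold higher (602 and 1388). Gadd45a, a classic damage-induced gene, was 3.42-fold lower (414 and 121). Ccng1 had 1476 and 2726, or 1.85-fold higher, and Perp 870.0 and 493, or 1.76-fold lower, so members of the list lay in both directions.

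Probe sets of the same gene give the only error available for these ratios, one that leaves out the spread of animals and arrays. Over 2853 genes with more than 1 probe set over the floor on both arrays, the log2 ratio had an SD of 0.31 per probe set within a gene, and over 10 repair genes 0.28. Of the genes past 2-fold, only Rad54l and Ddb2 are among these 10, so the SD mostly describes genes that were not called. Of 15 repair genes with more than 1 probe set with a ratio, 13 had all of them in 1 direction; Mpg and Lig3 did not. Of the 14 genes past 2-fold, 5 had such a second probe set, all in the same direction, and in 3 of them, Rad51ap1, Rad54l and Chek1, another one was past the limit too. The other 9, Ercc5 and Xpc among them, rest on 1 probe set with a ratio. For Brca2, Mre11a and Ung this probe set is of a design shared between transcripts, so they had no value when such designs were left out. The count of lower genes was then 9 of 38, with Apex1 gained, beside 9.74% of all genes. Rad54l had folds of 2.73, 2.33 and 2.40, and the probe sets of Rad51ap1 were all under the floor in the knockout, with control signals of 117, 86.5, 35.5 and 23.5 and knockout signals of 5.13, 4.69, 1.75 and 0.694. Of the 3 other Brca1 probe sets, 2 were under the floor on both arrays and 1 barely over it in the control (14.9 and 0.53), so the Brca1 value rests on its brightest probe set.

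**Figure D3:**
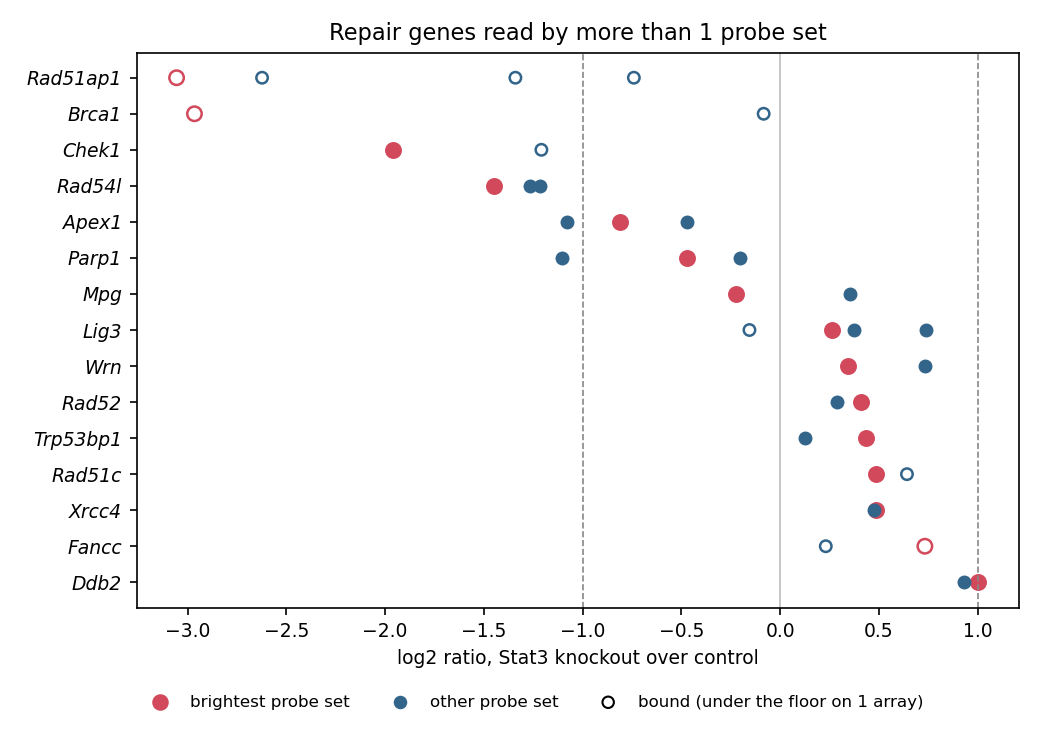
Log2 ratio of Stat3 knockout over control (x axis) of every probe set with a ratio, for the 15 repair genes read by more than 1 such probe set; the brightest is red, others are blue, and open circles are bounds. In Rad54l all probe sets lie between -1.45 and -1.22, while those of Parp1 spread from -1.10 to -0.20.

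**Figure D4:**
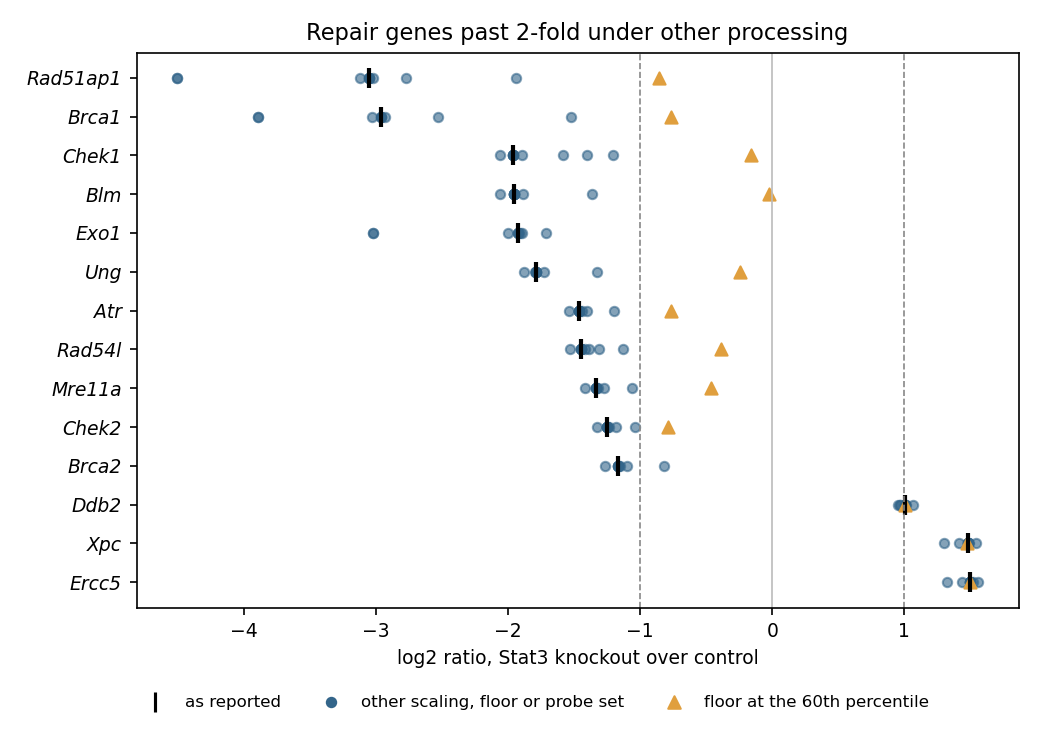
Log2 ratio of Stat3 knockout over control (x axis) of the 14 repair genes past 2-fold, as reported (black bars), under up to 10 other settings of scaling, floor and probe set (blue), and with the floor at the 60th percentile (orange triangles; none for Exo1 and Brca2, which are then under the floor on both arrays). Ercc5 and Xpc stay past 1 in every setting shown, with lowest values of 1.32 and 1.30, while all triangles of the lower genes lie above -1.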

How the data were processed

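Total RNA (100 ng per array) of pooled uterine epithelial cells, n = 3 per pool, was read on 2 arrays, 1 of control and 1 of Stat3 knockout, grouped by the genotype label. The deposited values are 1 intensity per probe set, made by the authors with MAS5 in Affymetrix Expression Console 1.1, per the submitters' processing notes. Neither detection calls nor probe-level data were used, and the sources used here name no scan batch. Of 22626 probe sets that are not controls, 20380 had 1 gene in GEO's platform annotation (possibly dated), and a RefSeq table (GRCm38.p6) gave current symbols for 20351 of them by gene ID. Log2 ratios used a floor of 14.0 and a limit of 2-fold, and code was tested on simulated data (Python 3.11.15, numpy 2.4.6, pandas 2.3.3, statsmodels 0.14.6). Precision is limited by the number of arrays.

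Alternatives changed 1 choice at a time: scaling (median, quantile, loess with a span of 0.3), floor (20th or 60th percentile, none, or added to both signals), choice of probe set, and the fold limit (1.5 or 3). Alternatives for the repair genes outside the 49 were added after the data were seen. The text names every gene of the 49; from each further list it takes at most 4 genes past 2-fold, by size of ratio, and at most 2 within it, by mean signal, and Mbd4 was named after its value was seen. The members, the lists and the rules were chosen with earlier results of these data known.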

Additional observations from a re-analysis of the deposited data

How the results depend on the processing

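The median log2 ratio of the repair genes ranged from -0.28 to -0.09 over 11 alternatives, and that of the genes not listed as cell-cycle-regulated from -0.09 to 0.07. The median of the cell-cycle-regulated ones was -0.20 with the floor at the 60th percentile and -1.32 with the floor value added, and lay between -1.94 and -1.55 under the other 9. With the 60th percentile floor, 0 of the 35 genes that kept a ratio were lower and, of the repair genes outside the 49, 4 were lower and 0 higher, beside 7.27% lower and 5.61% higher of 6173 genes. That floor removes such calls by its own construction, since 9 of the 11 lower calls were lost there and the other 2, Exo1 and Brca2, had no ratio left. With the floor value added, 0 repair genes outside the 49 were higher, beside 3.46% of all genes. With centring on the median 2 were, beside 8.45%. At 1.5-fold, 7 of the 44 genes with a ratio were higher. Of the 63 with a ratio outside the 49, 20 were lower and 8 higher, beside 18.6% lower and 19.4% higher of all genes. At 3-fold, 6 of the 44 were lower and 0 higher, and 7 of the 63 were lower and 0 higher, beside 4.83% and 1.72%. Of 465 values of single genes under alternatives, 436 moved by less than 0.31, the SD between probe sets, 29 moved further and 0 of the called ones changed sign. Calls were gained under some settings by Apex1 (-1.08), Fanca (-1.04), Parp1 (-1.10), Fancc (1.29) and Msh3 (1.00). No paired analysis was possible because each group has 1 array. Dim signals limit what can be read: 4 of the 45 genes were under the floor in the knockout and 3 in the control.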
